A study of Sus scrofa with 20 samples.

Results

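Nuclear receptors are transcription factors that carry a DNA-binding domain and, in most members, a pocket for a small lipophilic ligand such as a steroid, a retinoid, a bile acid, an oxysterol or a fatty acid. Many of the ligand sensors of lipid and drug metabolism bind DNA as heterodimers with a retinoid X receptor (RXR), while steroid receptors act mainly as homodimers and several orphan receptors act without a known physiological ligand. In the liver these factors are known for the control of bile acid, cholesterol and drug metabolism, and in adipose tissue for adipocyte differentiation and lipid storage. The genes described here were the members of this superfamily other than PPARG, HNF4A and the NR1D genes that a list of symbols named. All 38 listed symbols were found among the 31907 genes of the count table, and 35 of them passed the filter on low counts, which kept 16275 genes in all. RORB, ESRRB and PGR did not pass it.

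RNA-seq was carried out on bulk backfat, the subcutaneous adipose layer, and on bulk liver from 5 boars of Nanchukmacdon, a Korean pig breed. The labels describe the animals as normal, wild type and 22 months old and name no treatment, while the study's methods give a different average age. Each tissue had 5 libraries, and the column names gave the boar of each library as 65, 67, 69, 71 or 72. Values per library are listed below in that order, as CPM, read counts scaled to a common library total, after TMM normalization, and means are over the 5 libraries of a tissue with their SD. Positive log2 fold changes mean a higher level in backfat, and a gene is said to be higher in a tissue only at an adjusted p of at most 0.05 in edgeR's quasi-likelihood fit, where p-values were adjusted by the Benjamini-Hochberg method across the genes that passed the filter. Each fold change is given with its standard error (SE). Since whole tissue was sequenced, fewer cells of a type and less RNA per cell cannot be told apart.

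The libraries held 43820042 to 61772737 counts in genes. The 7 adipocyte markers summed to 9798 to 14100 CPM in backfat against 17.4 to 27.0 CPM in liver, and the 7 measured hepatocyte markers to 171 to 603 CPM in backfat against 31190 to 123000 CPM in liver, so each tissue carried the markers of its label. Liver 67 stood apart. Its hepatocyte sum was the 31190 CPM while the other 4 livers held at least 105500 CPM, 44.5% of its counts came from the mitochondrial genome against 6.38% to 20.3% in the other livers, and its 3 skeletal muscle markers summed to 159 CPM against at most 1.22 CPM. Backfat 69 held the 603 CPM of hepatocyte markers, against at most 216 CPM in the other backfat libraries, and AHSG, a plasma protein gene of hepatocytes, was at 32.2 CPM there and at most 0.0858 CPM elsewhere in backfat.

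Of the 35 receptor genes tested, 28 were called. Backfat had the higher level for 14 of them and liver for the other 14, 40.0% each. Among all 16275 genes tested, 55.0% were called, 28.0% with backfat higher and 27.0% with liver higher. At a log2 fold change of at least 2, 4 receptors were higher in backfat and 8 in liver, where the shares of all genes were 11.1% and 11.2%. For 23 of the 35 the libraries of the tissues did not overlap in level, and this held for 42.6% of all genes tested. The receptors had a median log2 fold change of -0.03, beside 0.0001 over the whole set of genes. Without liver 67 and backfat 69, 13 receptors were higher in backfat and 14 in liver. Scaling to library size alone shifted the median of all log2 fold changes by 0.72. The calls among all genes then became 50.5% for backfat and 14.3% for liver, and those among the receptors 17 and 12.

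**Figure D1:**
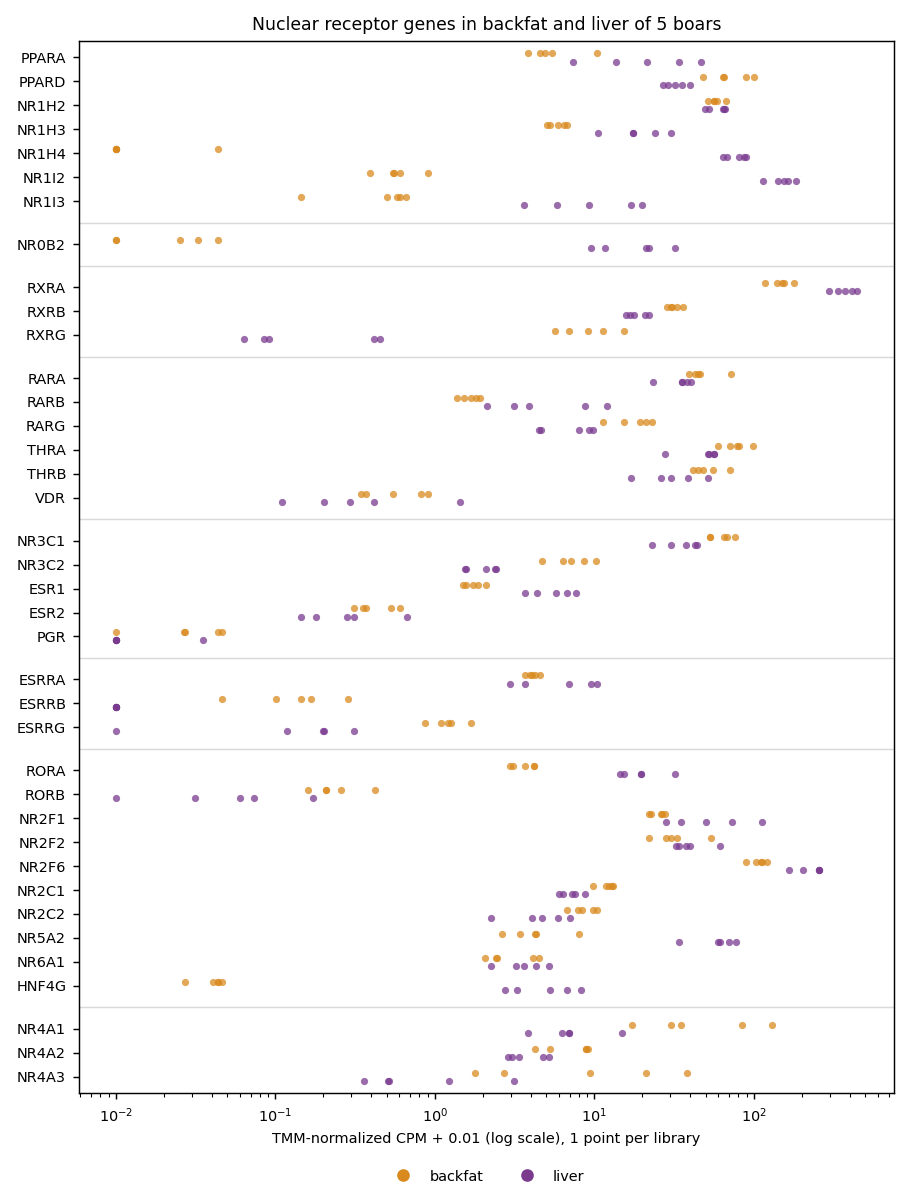
TMM-normalized CPM plus 0.01 on a log axis for the 38 receptor genes, 1 point per library, grouped by role from ligand sensors at the top to immediate-early receptors at the bottom. NR1H4, NR0B2, NR1I2 and HNF4G lay below 1 CPM in all 5 backfat libraries and above 2 CPM in all 5 livers, while RXRG lay above 5 CPM in all 5 backfat libraries and below 1 CPM in the livers.

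Weighted by length, the listed receptors together made 228 ± 19.6 CPM per kb of exon in backfat and 356 ± 29.9 CPM per kb in liver (SD, n = 5). TMM multiplied the library totals by 1.18 to 1.44 in backfat and by 0.649 to 0.916 in liver, which lowers the first value and raises the second. How this sum compares between the tissues at library size alone was not computed. NR2F6, an orphan receptor of the COUP-TF group, alone took 25.3% ± 2.53 of that sum in backfat and 34.0% ± 3.94 in liver. In backfat the next largest shares were those of NR1H2 with 9.68% ± 1.57, RXRA with 9.59% ± 1.04, NR4A1 with 9.38% ± 6.75 and PPARD with 7.85% ± 2.31, and the ranges of these 4 overlapped. In liver RXRA followed with 15.5% ± 1.94, then NR1I2 with 6.69% ± 0.952, NR1H2 with 6.34% ± 1.23 and NR0B2 with 4.72% ± 1.97, and the ranges of the last 3 overlapped. NR4A1 was the most uneven of the leading genes, with 2.76% to 19.3% of the sum among backfat libraries. The order of these shares depends on the summed exon lengths, which were 1865 bases for NR2F6, 6754 for RXRA and 1128 for NR0B2. In CPM without that weight, RXRA was above NR2F6 in both tissues. Its means were 148 against 107 CPM in backfat and 373 against 227 CPM in liver.

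Receptors that sense metabolic ligands made up 7 of the genes, and 5 of them were higher in liver, 1 was higher in backfat and 1 was not called. NR1H4 encodes FXR, the bile acid receptor. It was at 86.5, 67.6, 89.6, 64.3 and 81.1 CPM in the livers, and in backfat it had 2 counts in all 5 libraries together, both in backfat 69, the library with the highest hepatocyte marker sum. Liver held 15213 counts of it, and the ratio of liver over backfat was 12920 with a 95% interval of 3577 to 106700 that covers counting error only. The fitted log2 fold change was -13.15 (SE 0.45, adjusted p = 1.27e-09), a value that depends on the prior count of the fit. Without backfat 69 no count was left in backfat, and the fitted value was -14.96.

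NR1I2, the pregnane X receptor (PXR) that responds to drugs and other xenobiotics, was at 185, 115, 141, 165 and 155 CPM in liver and at 0.384, 0.595, 0.538, 0.541 and 0.892 CPM in backfat. The lowest liver library, liver 67, was far above the highest backfat library. This gave a log2 fold change of -8.01 (SE 0.28, adjusted p = 1.57e-09). NR1I3, the constitutive androstane receptor (CAR) with an overlapping set of drug-metabolism targets, was at 16.9, 3.62, 19.8, 5.81 and 9.30 CPM in liver and at 0.654, 0.488, 0.135, 0.595 and 0.566 CPM in backfat, without overlap. Its log2 fold change was -4.50 (SE 0.55, adjusted p = 2.02e-05). Livers 65 and 69 held the highest NR1I3 levels and liver 67 the lowest. The exons of NR1I3 share 258 of their 1812 bases with TOMM40L on the opposite strand in the RefSeq annotation. Counting did not use strand, so reads from that stretch cannot be assigned to either gene. The counted Ensembl exons of NR1I3 span 6354 bases, and their overlap was not measured.

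NR0B2 encodes SHP, a receptor without a DNA-binding domain that represses other nuclear receptors and is induced by FXR in hepatocytes. It was at 9.53, 11.7, 21.2, 32.2 and 21.9 CPM in liver, highest in liver 71 and lowest in liver 65. Backfat held 0.0226, 0.0153, 0.0336, 0 and 0 CPM, and the log2 fold change was -10.10 (SE 0.58, adjusted p = 3.71e-08).

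The promoter windows of NR1H4, NR0B2 and NR1I2 are shown for the size of the difference. The gene identifiers in the count table are ENSSSCG00000000875 for NR1H4, ENSSSCG00000011890 for NR1I2 and ENSSSCG00000003565 for NR0B2. Each window runs from 250 bases before to 50 bases after the RefSeq start on Sscrofa11.1, is printed 5′ to 3′ on the gene's strand, and carries in capitals the motifs searched on both strands, which were AGGTCA (the nuclear receptor half-site), GTTAAT (part of the HNF1 site), TGACGT (part of the cAMP response element) and GGGCGG (the GC box).
NR1H4, chr5:83732619-83732918, minus strand: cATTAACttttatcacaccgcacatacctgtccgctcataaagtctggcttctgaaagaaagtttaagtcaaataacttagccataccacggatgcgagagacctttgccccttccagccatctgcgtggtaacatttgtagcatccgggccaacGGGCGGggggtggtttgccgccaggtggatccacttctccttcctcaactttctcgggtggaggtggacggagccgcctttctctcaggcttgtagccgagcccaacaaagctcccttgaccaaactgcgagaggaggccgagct
NR1I2, chr13:140406080-140406379, minus strand: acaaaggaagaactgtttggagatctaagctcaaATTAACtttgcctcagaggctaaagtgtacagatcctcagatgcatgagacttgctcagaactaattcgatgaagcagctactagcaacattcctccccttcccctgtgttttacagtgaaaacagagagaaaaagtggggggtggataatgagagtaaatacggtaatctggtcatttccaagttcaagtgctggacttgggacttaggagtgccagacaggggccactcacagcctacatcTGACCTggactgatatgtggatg
NR0B2, chr6:84225420-84225719, plus strand: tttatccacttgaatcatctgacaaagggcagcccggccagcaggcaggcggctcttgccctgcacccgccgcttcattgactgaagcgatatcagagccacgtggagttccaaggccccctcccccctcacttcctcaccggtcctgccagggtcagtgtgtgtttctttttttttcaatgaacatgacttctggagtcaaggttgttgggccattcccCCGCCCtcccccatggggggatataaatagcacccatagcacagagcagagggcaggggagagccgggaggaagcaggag
Of the 38 members, 3 held GTTAAT, with NR1H4 and NR1I2 among them. The motif stood in 6.45% of 19534 protein-coding promoters of the same length. AGGTCA stood in the windows of 4 members, with NR1I2, NR1I3 and ESRRB among them, and in 14.1% of all promoters. GGGCGG stood in 17 of the 38 windows and in 50.6% of all promoters. These matches are descriptions of the letters in the windows. RefSeq lists RARG in this assembly as a long non-coding RNA and NR4A1 as a pseudogene, so their windows may not start at the true promoter.

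PPARA, the receptor that drives fatty acid oxidation in the fasted liver, was at 10.4, 5.45, 4.53, 4.90 and 3.83 CPM in backfat and at 33.9, 21.4, 46.7, 7.30 and 13.6 CPM in liver. The ranges overlapped, since liver 71 lay below backfat 65, although each boar had more in its liver. The log2 fold change was -2.08 (SE 0.46, adjusted p = 0.00198), and without backfat 65 it was -2.39. Skeletal muscle markers summed to 399.5 CPM in backfat 65 against 107, 149.9, 25.1 and 9.86 CPM in the other backfat libraries, and their part in the PPARA level was not tested. PPARD, the broadly expressed paralog, ran the other way. It was at 63.6, 48.0, 64.8, 101 and 89.5 CPM in backfat and at 29.0, 32.1, 26.9, 35.2 and 39.9 CPM in liver, without overlap, with a log2 fold change of 1.17 (SE 0.21, adjusted p = 0.000455).

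The liver X receptors sense oxysterols. NR1H3 (LXRα) was at 17.4, 10.5, 17.6, 30.1 and 24.0 CPM in liver and at 5.89, 5.23, 5.05, 6.76 and 6.45 CPM in backfat, with no overlap and a log2 fold change of -1.76 (SE 0.26, adjusted p = 8.33e-05). NR1H2 (LXRβ) was at 56.3, 66.9, 59.1, 51.8 and 56.6 CPM in backfat and at 66.2, 65.1, 64.5, 52.0 and 49.4 CPM in liver, and its log2 fold change was -0.03 (SE 0.14, adjusted p = 0.861). The direction of NR1H2 turned under scaling to library size alone, where its log2 fold change was 0.67 with an adjusted p of 0.0102. Of the summed LXR levels per kb of exon, NR1H2 made up 97.0% ± 0.61 in backfat and 90.5% ± 4.27 in liver. These shares depend on the annotation, since NR1H3 has 8721 exon bases in the count table and 3340 in RefSeq. A summed exon length is not a transcript length, and shares with RefSeq lengths were not computed.

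The retinoid X receptors are the shared partners of these sensors, and the composition of the group differed between the tissues. RXRA was at 154, 117, 178, 139 and 151 CPM in backfat and at 446, 296, 374, 411 and 336 CPM in liver, and no backfat library reached a liver library. For RXRA the log2 fold change was -1.33 (SE 0.19, adjusted p = 8.62e-05). RXRB was at 33.2, 36.0, 28.6, 30.1 and 30.5 CPM in backfat and at 22.1, 15.8, 20.8, 17.7 and 16.7 CPM in liver, again without overlap, with a log2 fold change of 0.77 (SE 0.15, adjusted p = 0.000727).

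Among the 35 tested receptors RXRG showed the largest difference in favor of backfat, at 11.3, 15.3, 9.17, 6.88 and 5.68 CPM there and at 0.0748, 0.054, 0.404, 0.442 and 0.0814 CPM in liver. This made a log2 fold change of 5.50 (SE 0.59, adjusted p = 6.06e-06). Of the summed RXR levels per kb of exon, RXRA made up 60.0% ± 6.85 in backfat and 89.6% ± 0.863 in liver, RXRB 29.6% ± 3.50 and 10.3% ± 0.882, and RXRG 10.4% ± 4.12 and 0.131% ± 0.115 (SD, n = 5). RXRG is known from skeletal muscle as well, and within backfat it was lowest in libraries 71 and 72, where the muscle marker sum was also lowest. It was highest in backfat 67, with a muscle sum of 107 CPM, while backfat 65 had the highest muscle sum, at 399.5 CPM. Among all libraries RXRG was lowest in liver 67, where the muscle sum was 159 CPM. The adipocyte marker sum ranked the 5 backfat libraries in the same order as RXRG. The part of muscle or of adipocytes in the RXRG level was not tested. The promoter window of RXRG is shown because of the size of that difference, and it held none of the 4 motifs.
RXRG, chr4:85158063-85158362, plus strand: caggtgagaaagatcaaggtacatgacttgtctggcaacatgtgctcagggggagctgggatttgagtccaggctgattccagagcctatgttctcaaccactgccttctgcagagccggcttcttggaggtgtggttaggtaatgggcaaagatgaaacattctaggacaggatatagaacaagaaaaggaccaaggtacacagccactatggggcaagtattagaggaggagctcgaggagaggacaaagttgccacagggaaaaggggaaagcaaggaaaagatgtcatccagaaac

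**Figure D2:**
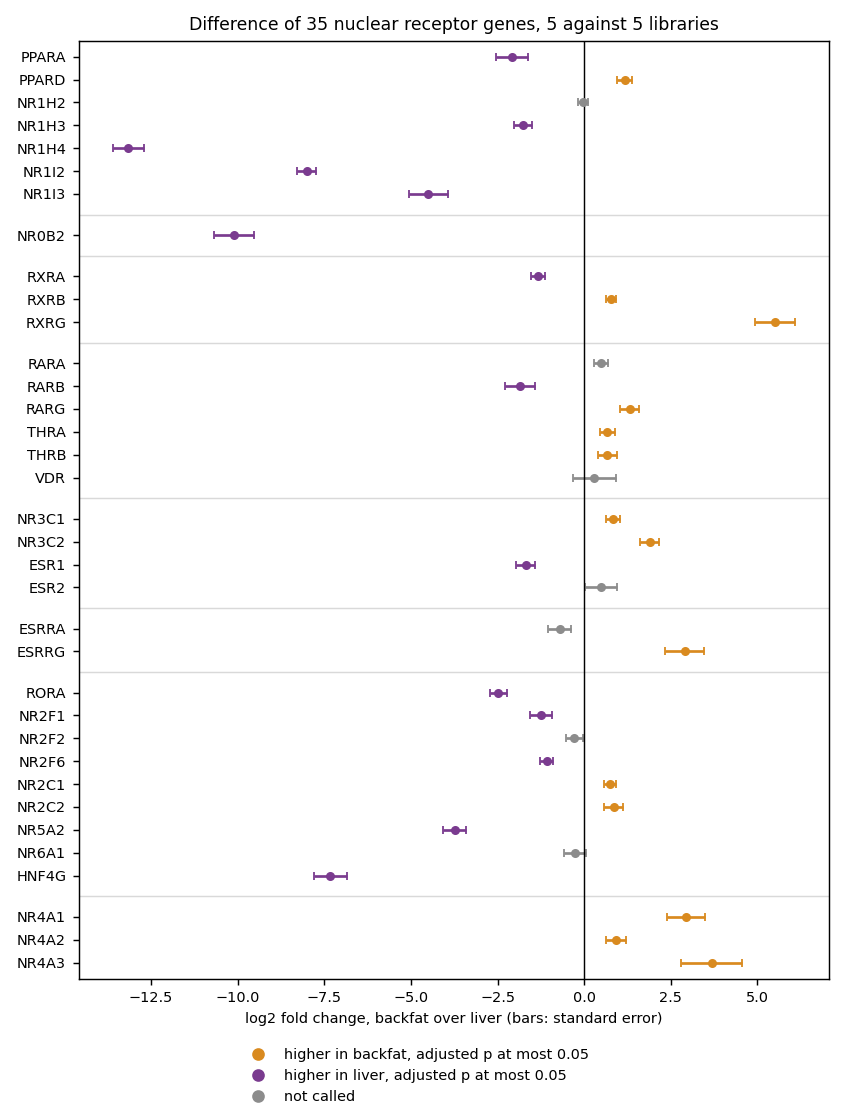
Log2 fold change of backfat over liver with its standard error for the 35 receptor genes tested, in the same role order. The points reach from -13.15 for NR1H4 to 5.50 for RXRG, and the 7 grey points (NR1H2, RARA, VDR, ESR2, ESRRA, NR2F2 and NR6A1) did not pass the test.

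Among the retinoic acid receptors, RARB was higher in liver and RARG in backfat. RARB, itself a known retinoic acid target, was at 11.97, 3.89, 8.69, 2.12 and 3.15 CPM in liver and at 1.52, 1.36, 1.92, 1.80 and 1.68 CPM in backfat, with no overlap and a log2 fold change of -1.85 (SE 0.44, adjusted p = 0.00322). Livers 65 and 69 held the highest levels. RARG was at 21.0, 11.3, 23.0, 15.2 and 19.3 CPM in backfat and at 4.49, 9.83, 4.63, 9.19 and 7.97 CPM in liver, and its log2 fold change was 1.32 (SE 0.28, adjusted p = 0.00145). RARA was at 42.8, 39.1, 71.8, 44.5 and 45.9 CPM in backfat and at 23.3, 35.5, 37.95, 40.6 and 35.5 CPM in liver. Backfat 69 stood above the other 4 backfat libraries for RARA. The log2 fold change of RARA was 0.50 (SE 0.20, adjusted p = 0.0534), which did not pass the threshold, and without backfat 69 it was 0.32 (adjusted p = 0.143). With the boar as a block RARA passed, at a log2 fold change of 0.49 and an adjusted p of 0.0469, and it also passed without backfat 67 (0.58, adjusted p = 0.041). It passed as well with no filter on low counts (0.56, adjusted p = 0.0425). Under scaling to library size alone, which shifted the median of all genes toward backfat, RARA was at 1.22 (adjusted p = 0.000114).

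The thyroid hormone receptor genes were both higher in backfat by a small margin. THRA was at 98.8, 78.0, 80.6, 70.7 and 59.2 CPM in backfat and at 56.7, 27.8, 55.9, 51.6 and 52.0 CPM in liver, where liver 67 lay far below the others. Its log2 fold change was 0.67 (SE 0.21, adjusted p = 0.0172), and without liver 67 it was 0.48 (adjusted p = 0.0189). Of the 6538 exon bases of THRA in RefSeq, 2985 lie opposite exons of NR1D1, so unstranded counts cannot separate the genes there. NR1D1, a clock receptor, was itself higher in backfat with 6.90 ± 2.08 against 2.65 ± 0.909 CPM. The overlap of the counted Ensembl exons, 9184 bases for THRA, was not measured. THRB was at 48.1, 71.1, 55.4, 44.7 and 41.8 CPM in backfat and at 38.9, 17.0, 51.9, 26.1 and 30.2 CPM in liver, with overlapping ranges. Its log2 fold change was 0.67 (SE 0.27, adjusted p = 0.0495), which was close to the threshold. With the boar as a block it was 0.73 with an adjusted p of 0.0525, and without liver 67 it was 0.47 with an adjusted p of 0.0875. VDR, the vitamin D receptor, was low in both tissues, at 0.902, 0.336, 0.538, 0.811 and 0.36 CPM in backfat and at 0.0998, 1.43, 0.191, 0.284 and 0.407 CPM in liver. The log2 fold change was 0.30 (SE 0.63, adjusted p = 0.712), and without liver 67, the only liver above 1 CPM, it was 1.24 (adjusted p = 0.0492).

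Of the steroid receptors, both corticosteroid receptors were higher in backfat. NR3C1, the glucocorticoid receptor, was at 68.3, 65.1, 76.2, 53.2 and 53.4 CPM in backfat and at 44.2, 22.9, 42.8, 30.2 and 37.7 CPM in liver, and the log2 fold change was 0.83 (SE 0.20, adjusted p = 0.00338). NR3C2, the mineralocorticoid receptor, was at 10.2, 8.61, 6.31, 7.17 and 4.68 CPM in backfat and at 2.42, 1.54, 1.55, 2.08 and 2.36 CPM in liver. Its difference was larger, with a log2 fold change of 1.89 (SE 0.27, adjusted p = 7.08e-05). Neither gene's tissues overlapped.

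ESR1, the estrogen receptor α gene, was higher in liver, at 4.39, 5.75, 6.75, 3.67 and 7.68 CPM against 1.86, 2.08, 1.73, 1.57 and 1.49 CPM in backfat. The tissues did not overlap, and ESR1 had a log2 fold change of -1.69 (SE 0.26, adjusted p = 0.000142). ESR2 stayed below 1 CPM in every library, at 0.361, 0.595, 0.303, 0.523 and 0.343 CPM in backfat and at 0.299, 0.135, 0.17, 0.663 and 0.271 CPM in liver, and its log2 fold change was 0.48 (SE 0.46, adjusted p = 0.395). Under scaling to library size alone ESR2 passed, at 1.245 (adjusted p = 0.0278). PGR, the progesterone receptor, had 7 counts in all of backfat and 1 in all of liver, a ratio of 4.12 with an interval of 0.529 to 186, so a difference was not detectable at this depth.

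The estrogen-related receptors are orphans that regulate mitochondrial energy metabolism. ESRRG was at 1.67, 1.21, 1.25, 1.08 and 0.858 CPM in backfat and at 0.299, 0.108, 0.191, 0 and 0.19 CPM in liver, low in both but without overlap, and its log2 fold change was 2.90 (SE 0.57, adjusted p = 0.000854). ESRRA was at 4.54, 4.23, 4.04, 3.68 and 3.95 CPM in backfat and at 9.53, 3.65, 10.4, 2.97 and 6.89 CPM in liver. The livers fell into high values for boars 65, 69 and 72 and values below all of backfat for boars 67 and 71. The log2 fold change of ESRRA was -0.71 (SE 0.33, adjusted p = 0.0888), and it was -0.89 without liver 67 and -0.92 without liver 71, with adjusted p of 0.0251 and 0.0183. ESRRB had 46 counts in backfat and none in liver, which is at least 9.03-fold higher against a floor of 3 counts over the 5 livers.

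Of the 10 orphan receptors listed, 9 were tested, of which 5 were higher in liver and 2 in backfat. NR5A2 (LRH-1), an activator of bile acid synthesis genes, was at 76.9, 33.8, 69.9, 61.7 and 59.5 CPM in liver and at 7.97, 2.61, 4.22, 3.39 and 4.32 CPM in backfat, and its log2 fold change was -3.74 (SE 0.33, adjusted p = 1.06e-06). HNF4G, the paralog of the hepatocyte factor HNF4A, was at 8.20, 2.73, 6.77, 3.29 and 5.26 CPM in liver and at 0.0338, 0.0305, 0.0336, 0.036 and 0.0171 CPM in backfat. HNF4G had a log2 fold change of -7.32 (SE 0.46, adjusted p = 7.65e-08). RORA, a receptor of the circadian clock, was at 14.5, 32.2, 15.2, 19.5 and 19.5 CPM in liver and at 3.65, 4.15, 2.96, 3.08 and 4.15 CPM in backfat, with liver 67 above the other livers. RORA had a log2 fold change of -2.49 (SE 0.24, adjusted p = 2.99e-06), and of -2.29 without liver 67. RORB reached at most 0.412 CPM in backfat and 0.162 CPM in liver and was not tested.

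Of the 3 COUP-TF genes, NR2F6 and NR2F1 were higher in liver and NR2F2 was not called. NR2F6 was at 203, 166, 257, 255 and 256 CPM in liver and at 104, 88.9, 122, 113 and 110.3 CPM in backfat without overlap, with a log2 fold change of -1.08 (SE 0.18, adjusted p = 0.000283). NR2F1 was at 34.99, 112, 28.1, 73.5 and 50.4 CPM in liver, with liver 67 highest, and at 26.6, 26.3, 27.6, 22.7 and 22.1 CPM in backfat. NR2F1 had a log2 fold change of -1.25 (SE 0.32, adjusted p = 0.00536), and of -0.94 without liver 67. Neither passed under scaling to library size alone, where the log2 fold changes were -0.37 for NR2F6 and -0.46 for NR2F1. NR2F2 was at 30.3, 33.1, 54.1, 28.0 and 22.1 CPM in backfat and at 33.9, 61.2, 32.6, 37.5 and 39.6 CPM in liver, with a log2 fold change of -0.29 (SE 0.25, adjusted p = 0.349) that turned to 0.45 under that scaling. Backfat 69 and liver 67 held its highest values in their tissues. Smooth muscle markers were also highest in these libraries, at 346 CPM against 186 to 256 CPM in the other backfat libraries and at 199 CPM against 78.6 to 108 CPM in the other livers, and their part in NR2F2 was not tested.

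The testicular receptors NR2C1 and NR2C2 were both somewhat higher in backfat. NR2C1 was at 12.4, 13.1, 12.9, 11.9 and 9.81 CPM in backfat and at 7.51, 6.37, 8.73, 6.04 and 7.19 CPM in liver, without overlap and with a log2 fold change of 0.74 (SE 0.17, adjusted p = 0.00269). NR2C2 was at 9.79, 10.3, 8.31, 7.89 and 6.78 CPM in backfat and at 5.88, 4.05, 7.01, 2.24 and 4.69 CPM in liver, with a log2 fold change of 0.85 (SE 0.28, adjusted p = 0.0221). The call of NR2C2 was lost without backfat 67, with an adjusted p of 0.0509, and without liver 67 and backfat 69 together, with one of 0.054. Against a fold of 1.5 neither gene was called, with adjusted p of 0.144 for NR2C1 and 0.148 for NR2C2. In RefSeq, 1115 of the 8856 exon bases of NR2C2 lie opposite MRPS25, and the overlap of its 9523 counted Ensembl bases was not measured. NR6A1, the germ cell nuclear factor gene, was at 4.49, 4.13, 2.44, 2.40 and 2.06 CPM in backfat and at 4.31, 5.16, 3.63, 3.22 and 2.22 CPM in liver, with a log2 fold change of -0.26 (SE 0.31, adjusted p = 0.51) that turned to 0.48 under scaling to library size alone.

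The NR4A genes encode receptors without a usual ligand pocket that are transcribed within minutes of a stimulus, as immediate-early genes. All 3 were higher in backfat. NR4A1 was at 84.0, 30.1, 17.3, 34.8 and 130.2 CPM in backfat and at 6.88, 14.9, 3.84, 6.26 and 6.94 CPM in liver, where liver 67 stood above the rest and close to backfat 69. The difference was 2.93 (SE 0.55, adjusted p = 0.000597) on the log2 scale. NR4A3 was at 2.70, 21.1, 1.77, 9.41 and 38 CPM in backfat and at 0.499, 3.13, 0.51, 0.347 and 1.22 CPM in liver, with a log2 fold change of 3.68 (SE 0.89, adjusted p = 0.00367). That difference was 4.48 without liver 67 and 2.94 without backfat 72, and it was called in both cases. Its backfat values ran from 1.77 CPM in library 69 to 38 CPM in library 72, and the lowest of them lay below liver 67. NR4A2 was at 8.80, 5.29, 8.91, 4.25 and 9.11 CPM in backfat and at 3.37, 5.21, 3.02, 2.88 and 4.75 CPM in liver, and its log2 fold change was 0.92 (SE 0.29, adjusted p = 0.0158).

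The spread of these genes within backfat was wide. The coefficient of variation among backfat libraries was 104% for NR4A3 and 79.3% for NR4A1, against a median of 23.2% over all genes tested. The 7 immediate-early markers (FOS, FOSB, JUNB, EGR1, ATF3, IER2 and DUSP1), with all 7 measured and none at 0, summed to 1110, 472, 446, 662 and 1371 CPM in the backfat libraries and to 210 to 327 CPM in the livers, without overlap. NR4A1 ranked the 5 backfat libraries in the same order as that sum, whereas NR4A3 was low in backfat 65 and high in backfat 67. The part of the immediate-early response as a whole in the NR4A values was not tested. The window of NR4A3 is shown because it alone among the members held TGACGT 3 times, at -69, -43 and 16 from the start, while PPARD and NR6A1 held it and 8.62% of all promoters did.
NR4A3, chr1:241569617-241569916, plus strand: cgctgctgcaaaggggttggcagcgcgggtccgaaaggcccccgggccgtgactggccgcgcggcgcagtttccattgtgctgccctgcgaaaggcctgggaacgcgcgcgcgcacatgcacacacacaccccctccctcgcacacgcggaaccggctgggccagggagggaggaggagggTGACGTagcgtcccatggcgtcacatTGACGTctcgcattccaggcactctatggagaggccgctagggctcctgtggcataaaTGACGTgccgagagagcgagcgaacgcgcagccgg

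**Figure D3:**
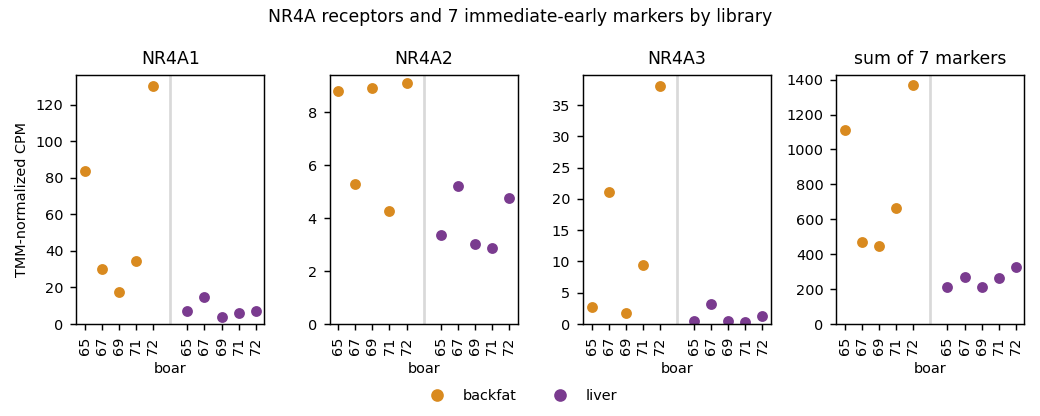
TMM-normalized CPM of NR4A1, NR4A2, NR4A3 and the sum of 7 immediate-early markers in the backfat (orange) and liver (purple) library of each boar, each panel on its own linear axis from 0. Backfat 72 was the highest library in all 4 panels, at 130.2, 9.11, 38 and 1371 CPM.

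A ratio of related receptors within a library does not depend on scaling between libraries. Of 15 pairs compared, 12 differed between the tissues by a two-sided exact permutation test, after p-values were adjusted across the pairs. The test used all 252 ways to place the libraries. For 9 of the 12 the ratios did not overlap. The share of pairs that would differ among all genes was not computed. Of all single genes tested, 55.0% were called and 42.6% did not overlap, and RXRA, RARA and NR4A1 recur across the pairs. The log2 ratio of PPARA over PPARD was -3.70 ± 0.82 in backfat and -0.68 ± 1.25 in liver, a difference of -3.02. That of RXRA over RXRB was 2.21 ± 0.34 and 4.32 ± 0.14, and that of RXRA over RXRG was 4.01 ± 0.69 and 11.17 ± 1.25, so RXRA outweighed both paralogs by more in liver. RARA over RARB was 4.85 ± 0.22 and 2.80 ± 1.28, and RARA over RARG was 1.45 ± 0.31 and 2.31 ± 0.44. NR1H3 over NR1H2 was -3.31 ± 0.30 and -1.65 ± 0.74. NR1I3 over NR1I2 was -0.39 ± 1.01 and -4.03 ± 0.91, so that NR1I3 had the smaller share of the pair in liver although both genes were higher there.

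The corticosteroid pair NR3C1 over NR3C2 was 3.13 ± 0.39 in backfat and 4.14 ± 0.38 in liver, and ESRRA over ESRRG was 1.78 ± 0.27 and 5.64 ± 1.12. ESRRG had 0 counts in liver 71, where the ratio depends on the 0.5 added to each count. Each of these 9 pairs had an exact permutation p of 0.00794, the smallest that 5 against 5 libraries can give, and an adjusted p of 0.0132. The ratios of ESR1 over ESR2 (difference -2.25, adjusted p = 0.0238 by the exact permutation test), NR2F1 over NR2F2 (difference -0.76, adjusted p = 0.0325 by the exact test) and NR4A1 over NR4A2 (difference 1.81, adjusted p = 0.0397 by the exact test) also differed but overlapped. The call of NR2F1 over NR2F2 was lost without backfat 67, 69 or 71 or liver 72, and that of NR4A1 over NR4A2 without liver 69 or 72. THRA over THRB differed by -0.05, NR2C1 over NR2C2 by -0.18 and NR4A1 over NR4A3 by -0.61, with adjusted exact p of 0.794, 0.527 and 0.527. An exact sign-flip test over the 5 boars cannot go below 0.0625, and all 12 pairs reached that value.

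**Figure D4:**
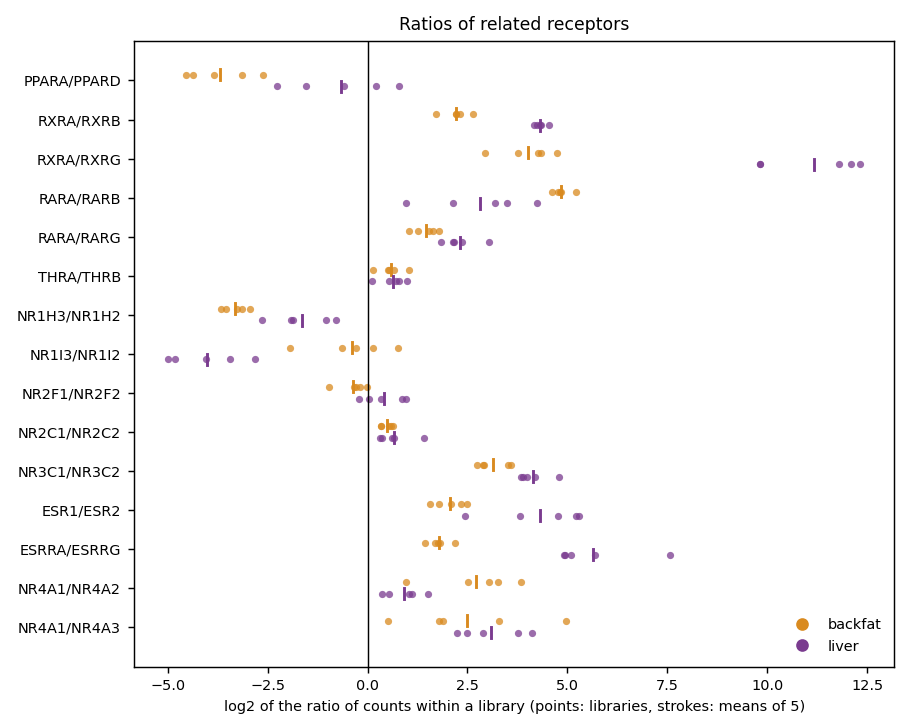
Log2 of the ratio of counts of related receptors within each library, with strokes at the means of the 5 libraries of a tissue. The pairs RXRA/RXRG, ESRRA/ESRRG and NR1I3/NR1I2 lie farthest apart, with differences of -7.16, -3.86 and 3.63, and THRA/THRB lies closest together. Livers 65 to 72 held 3, 2, 19, 14 and 3 counts of RXRG and 12, 4, 9, 0 and 7 counts of ESRRG. Without liver 71 the differences of ESRRA/ESRRG and NR1I3/NR1I2 were -3.38 and 3.44.

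Within liver the receptors did not all vary in the same way. Livers 65 and 69 were the top libraries for 14 of the 35 tested receptors (40.0%), a pattern that 23.6% of all genes tested had. These were PPARA, NR1H4, NR1I3, RXRB, RARB, THRA, THRB, NR3C1, ESRRA, ESRRG, NR2C1, NR2C2, NR5A2 and HNF4G. The same livers had the lowest mitochondrial shares, 6.97% and 6.38% of counts. Liver 67 was the lowest library for 14 receptors (40.0%, against 28.1% of all genes) and the highest for 9 (25.7%, against 32.6%), among the latter all 3 NR4A genes, RORA, NR2F1, NR2F2 and VDR. NR0B2 and NR1H3 had livers 71 and 72 on top, with liver 71 highest. In backfat, library 72 was the lowest for 15 receptors (42.9%, against 22.3% of all genes), among them RXRG, PPARA, ESRRG, NR3C2 and NR6A1. That library also had the lowest backfat sums of skeletal muscle, adipocyte and endothelial markers, at 9.86, 9798 and 663 CPM. Its fibroblast and stroma markers had the highest sum, at 49630 CPM against 24710 to 37110 CPM elsewhere in backfat. These counts of receptors carry no test, and the part of muscle, of other cell types or of mitochondrial reads in them was not tested.

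**Figure D5:**
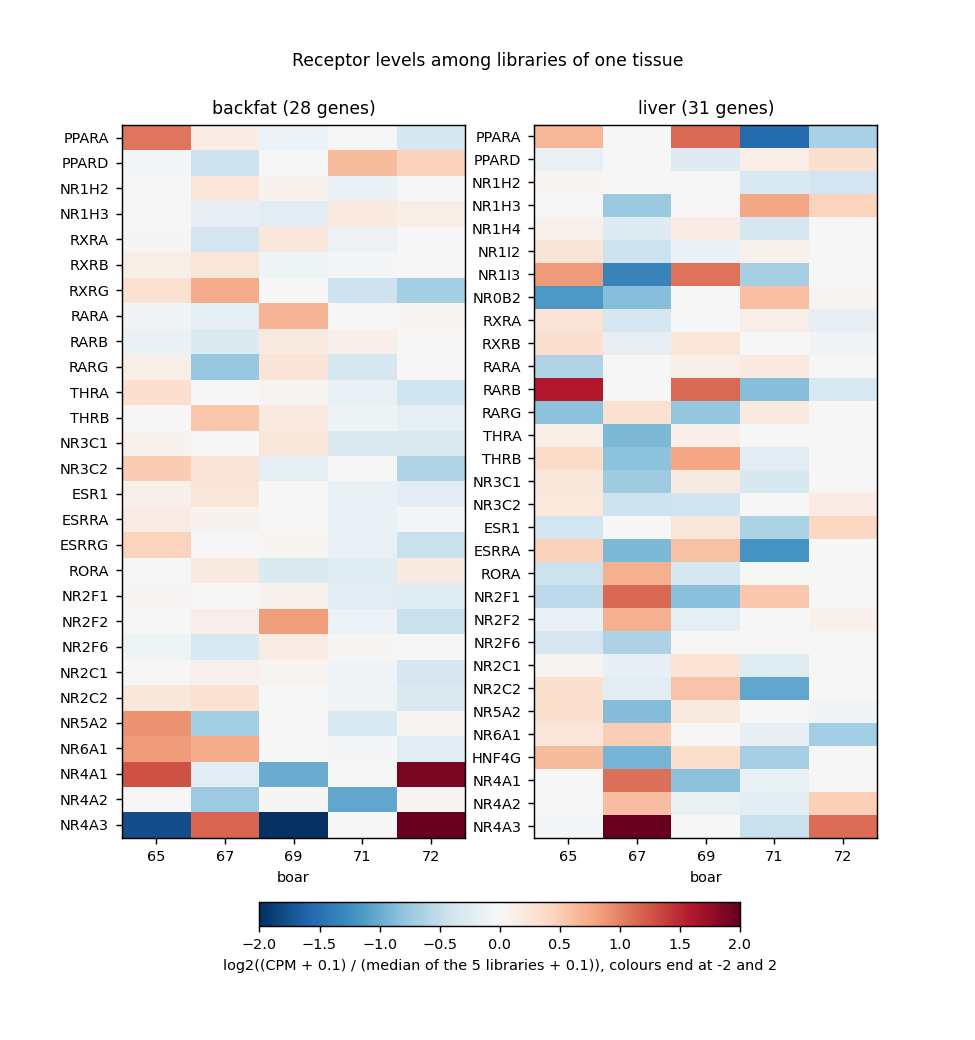
Log2 of each library's level over the median of the 5 libraries of its tissue, with 0.1 CPM added, for the 28 receptors with a mean of at least 1 CPM in backfat and the 31 in liver. PPARA, NR1I3, RARB and ESRRA were high in livers 65 and 69 together, and NR4A1 and NR4A3 had their highest liver level in library 67 and their highest backfat level in library 72.

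Genes with which the receptors act were described by lists of coregulators and known targets. Of 10 coactivators tested, 4 were higher in backfat (40.0%) and 3 in liver (30.0%). Among all genes tested these shares were 28.0% and 27.0%, and the counts of each list that follows are to be read beside them. NCOA3 and CREBBP were higher in backfat, at 27.2 ± 2.19 against 13.6 ± 3.66 CPM and 65.2 ± 16.0 against 46.2 ± 4.84 CPM, and NCOA4 and NCOA2 in liver, at 138 ± 47.5 against 71.6 ± 8.81 CPM and 50.2 ± 16.9 against 28.3 ± 8.94 CPM. Of 8 corepressors, 2 were higher in backfat, none in liver and 6 were not called. SIN3A, a scaffold of histone deacetylase complexes, was among the 2, and its log2 fold change was 0.51 (adjusted p = 0.0279).

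Of the 7 tested genes on the FXR target list, all 7 were higher in liver, with a median log2 fold change of -10.10, and NR0B2 is itself among them. KNG1 was at 1280.0 ± 366 CPM in liver and at 0.511 ± 0.928 CPM in backfat, and FETUB at 891 ± 266 and 0.353 ± 0.79 CPM. The 6 targets of PXR and CAR that could be matched by symbol, of 16 listed, were all higher in liver, among them ALAS1, the rate-limiting enzyme of heme synthesis, at 622 ± 122 against 45.1 ± 19.1 CPM, and POR, the electron donor of cytochrome P450 enzymes, at 527 ± 189.6 against 174 ± 16.6 CPM. Of the 14 PPARA targets tested, 9 were higher in liver, including the peroxisomal enzyme gene EHHADH, at 416 ± 139 against 25.8 ± 5.78 CPM. PDK4, which spares glucose from oxidation, was the single target with more in backfat, where its mean was 622 CPM with an SD of 817, and its log2 fold change was 2.12 (adjusted p = 0.0395). Many of these targets are expressed mainly by hepatocytes, whose markers differed between the tissues as given above, and the part of cell type was not tested.

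The 11 LXR targets were split, with 4 higher in each tissue (36.4% each, beside 28.0% and 27.0% of all genes). The lipogenic genes FASN (log2 fold change 3.26, adjusted p = 0.000492) and SCD (2.58, adjusted p = 0.0281) were higher in backfat, and the sterol exporter gene ABCG8 (-11.54, adjusted p = 2.93e-08) and APOE (-3.60, adjusted p = 0.000657) in liver. Thyroid hormone receptor targets had 2 of 9 higher in backfat (22.2%), ME1 and HR, and 4 in liver (44.4%). Among these 4, PCK1 and G6PC1 had the highest mean CPM over all libraries. Retinoic acid receptor targets had 4 of 11 higher in backfat (36.4%) and 5 in liver (45.5%), and RARB is itself among the 5. CRABP2, a retinoic acid carrier, was at 46.0 ± 28.7 CPM in backfat and 0.118 ± 0.209 CPM in liver, and CYP26A1, which degrades retinoic acid, was at 0.255 ± 0.197 and 41.3 ± 15.7 CPM. TGM2 was higher in backfat and RARRES2 in liver.

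Corticosteroid receptor targets had 3 of 11 higher in each tissue, with DUSP1 and ZBTB16 in backfat and TAT and PCK1 in liver. Of 4 tested ESR1 targets, GREB1 was higher in backfat and IGFBP4 and CXCL12 in liver. Of 8 ESRRA targets, with ESRRA itself on the list, 2 were higher in liver, ACADM and TFAM, and PDK4 in backfat. Of 7 RORA targets, 2 were higher in backfat, NR1D1 and NPAS2, and 3 in liver, among them CRY1 and G6PC1. Of the 2 VDR targets tested, CD14 was higher in liver. Over all lists, 23 of 102 distinct genes were higher in backfat (22.5%, beside 28.0% of all genes) and 45 in liver (44.1%, beside 27.0%), with a median log2 fold change of -0.46. The 102 include NR0B2, RARB and ESRRA, which are receptors described above. Within the rest of the family, 4 of 7 tested genes were higher in backfat and 3 in liver, with PPARG at 161 ± 34.4 against 0.742 ± 0.576 CPM and NR1D2 higher in backfat, and HNF4A at 439 ± 109 CPM in liver against 0.594 ± 0.423 CPM.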

How the data were processed

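RNA was isolated by the authors from bulk backfat and liver of 5 boars with TRIzol and sequenced as paired reads on an Illumina NovaSeq. Reads were checked with FastQC, trimmed with Trimmomatic and aligned with HISAT2 to Sscrofa11.1, and the deposited counts are raw read counts per gene from featureCounts 2.0.1 on Ensembl release 99, over exons and without strand (per the file headers and the labels). The gene length in that table, the summed length of a gene's exons and not that of a transcript, served for levels per kb. No authors' fold change was used. The bisulfite read-position files of the other 10 samples were not used.

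The 10 RNA columns name the tissue and the boar, while the labels number replicates 1 to 5, so columns were mapped to tissues only. Chi-square tests of the counts found no pair of libraries that agreed within sampling noise. Genes were filtered with filterByExpr, scaled by TMM and tested with tissue as the only term by edgeR 4.0.16 (glmQLFit, glmQLFTest, R 4.3.3) with Benjamini-Hochberg adjustment over 16275 genes. DESeq2 1.42.0, the tool of the study, and limma 3.58.1 (voom) were alternatives, as were other scalings and filters, a fold threshold, a block for the boar and leaving out libraries. By the column names each library of a tissue came from another boar. In simulated data of this size, with 100 genes changed by a log2 of 1 and 100 by a log2 of 2 among 16275, the edgeR test recovered 17 and 85 and called 4 of 16075 unchanged genes. In the measured data 55.0% of genes were called, a far larger share than was changed in the simulation. With few changed genes the adjustment of p-values is stricter, so these recoveries do not describe the comparison of the tissues. Same-numbered columns are tissues of the same boar by their names. The correlation of their deviations from the tissue means was 0.238, 0.107, 0.049, 0.165 and 0.0984 for boars 65 to 72. The liver that matched a backfat library best was the same-numbered one for boars 65, 67, 71 and 72. For boar 69 it was another liver, so the pairing of that boar rests on the column names alone.

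Ratios of related receptors used log2 of counts plus 0.5, and 95% intervals of count ratios are exact and cover counting error only. Promoter windows were read from the RefSeq annotation and genome of Sscrofa11.1. The genes, gene lists and pairs were chosen with earlier results of these data known. All listed receptors were named, and of the other lists the called genes with the highest mean CPM, up to 2 per direction, and a few of the results this rule names are not reported here. Depth was 43820042 to 61772737 counts per library, so that a count of 1 was worth about 0.0113 to 0.0316 CPM.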

Additional observations from a re-analysis of the deposited data

Results flagged for a closer look

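In 70 groups of 5 libraries, each receptor in each tissue, a gap to the nearest library of over 0.71 of the group's range set a library apart 8 times, and chance flags about 1 in 20 groups. Liver 67 accounted for 5 of the 8. THRA was lower there, at 27.8 CPM against 51.6 to 56.7 CPM in the other livers. VDR was higher at 1.43 CPM against 0.0998 to 0.407 CPM, RORA at 32.2 CPM against 14.5 to 19.5 CPM, NR2F2 at 61.2 CPM against 32.6 to 39.6 CPM, and NR4A1 at 14.9 CPM against 3.84 to 6.94 CPM. Backfat 69 stood above the other backfat libraries for RARA, at 71.8 CPM against 39.1 to 45.9 CPM, and for NR1H4, at 0.0336 CPM against 0, which was 2 counts. PPARA was at 10.4 CPM in backfat 65 against 3.83 to 5.45 CPM in the others. The markers and mitochondrial share that also set these libraries apart are given in the report, and their part in these values was not tested.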

How the results depend on the processing

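Of the 28 called receptors, 19 kept their direction and their call under every alternative that could be fitted for them. The receptors higher in backfat numbered 7 under a test against a fold of 1.5 and 4 at a log2 fold change of at least 2, and those higher in liver numbered 8 at that threshold. Leaving out each library in turn gave 13 to 15 receptors higher in backfat and 14 to 15 in liver, 18 to 22 listed coregulators and targets in backfat and 44 to 50 in liver, and 10 to 12 pairs. Scaling to library size alone moved the listed coregulators and targets higher in backfat from 23 to 37. With the boar as a replicate block 14 receptors were called in each direction, RARA gained and THRB lost its call, and no other call among the receptors changed. Under the sign-flip test over boars, which blocks the ratios, 0 of 15 pairs passed, since its smallest p is 0.0625 (adjusted 0.0781), while 12 had that unadjusted value.

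The direction of NR1H2 turned to 0.67 with library size alone, 0.0285 with no filter, 0.0147 without backfat 71 and 0.0223 without liver 65, and over single libraries left out it ran from -0.126 to 0.0223. Library size alone also turned NR2F2 to 0.45 and NR6A1 to 0.48. The ratio of THRA over THRB turned to 0.0599 without backfat 67 and 0.04 without liver 71 (range over libraries left out -0.18 to 0.0599), and that of NR2C1 over NR2C2 to 0.0042 without liver 71 (range -0.272 to 0.0042). None of these was called in the report. THRB lost its call under 14 of 20 alternatives. With at least 10 counts in every library, fewer receptors could be tested, and 12 and 10 were called. The cause of the other changes was not tested. Depth limits the genes under 1 CPM, where RORB, PGR and ESRRB did not pass the filter of the main test. With no filter on low counts, 17 receptors were higher in backfat and 14 in liver.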
